A study of Homo sapiens with 18 samples.

Results

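The genes of antigen processing and presentation were followed in endometrial cancer cells, as 30 genes out of 20046 gene symbols measured. They were taken by their symbol on the array from a list that was chosen with earlier results of these data known. The class I part held 21 genes and the class II part 9. Each gene was represented by its probe of highest mean over 18 arrays in the authors' processed values, and 14 of the genes had more than 1 probe. Illumina bead arrays read the RNA of Hec-1A and RL95-2, established human lines that derive from an adenocarcinoma and an adenosquamous carcinoma of the endometrium, respectively, in 6 groups of 3 arrays. Each line received control IgG, or PDGF-AA (PDGFAA in the labels), which activates platelet-derived growth factor receptor alpha, or PDGF-AA + 3G3 (PDGFAA+3G3-1 in the labels), where 3G3 is an antibody to that receptor. PDGF-AA and the antibody were given together in the last group, no group received the antibody alone, and neither dose nor duration is stated in the labels. Each line is a single tumour line grown without other cells, and nothing in the labels says that replicates were separate cultures, so the p-values reflect the spread between arrays alone, which may be technical.

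Class I molecules are a polymorphic heavy chain paired with beta-2 microglobulin, and they carry peptides from inside the cell to its surface, where CD8 T cells read them. The peptides are cut by the proteasome, whose interferon-inducible subunits form the immunoproteasome, are pumped into the endoplasmic reticulum by the TAP transporter, and are trimmed and loaded there with the help of chaperones. Class II molecules carry peptides from endosomes for CD4 T cells, are switched on by the coactivator CIITA, and are usually found on professional antigen-presenting cells, although epithelial cells can be induced to make them.

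Levels are quantile-normalized log2 signals, and differences are on the log2 scale, Hec-1A minus RL95-2 or treated minus untreated, ± SE with n = 3 arrays per group. A difference was called where limma's p, adjusted over the 32216 probes tested, was below 0.05, and a probe was tested where at least 3 arrays exceeded the array median of 6.62. Of the 30 genes, 26 were tested, 20 of class I and 6 of class II. The endoplasmic reticulum disulfide isomerase PDIA3 and the class II chains HLA-DRB1, HLA-DPA1 and HLA-DPB1 did not pass that filter. Background was not subtracted, so differences of dim probes are understated, and levels cannot be compared between genes. The 75th percentile of raw signal ran from 122.7 to 185.9 across arrays, and the median 95% half-width of a difference between 2 groups was 0.155.

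The lines were checked by markers. All 6 epithelial markers lay above the array median on most arrays of both lines, with EPCAM between 12.88 and 13.59 in Hec-1A and between 12.00 and 12.38 in RL95-2. PAX8, a transcription factor of Müllerian epithelium, was clearly detected in both lines, whereas the receptors ESR1 and PGR stayed near the array median. Of 11 leukocyte markers with a probe, 7 lay above the median on most Hec-1A arrays and 6 on most RL95-2 arrays. PTPRC, CD3E and CD14 reached at most 6.69 on any array. MS4A1 reached 6.76 in Hec-1A and 6.78 in RL95-2, and ITGAX 6.70 and 6.71. CD86, LYZ and AIF1 reached 6.87, 6.94 and 7.01 in Hec-1A and 6.91, 6.90 and 6.96 in RL95-2. The summed leukocyte marker signal, on the unlogged scale, ran from 1518 to 1796 in Hec-1A and from 1753 to 1951 in RL95-2. CD68, CD83 and LCP1 were the brightest of these markers. Background was not subtracted, so each sum also holds the floor of all 11 probes and does not measure a leukocyte content. Its part in the class II values was not tested. Of 3 endothelial and 5 fibroblast markers, 1 and 2 lay above the median on most arrays of each line. CDH5 read 7.02 to 7.34 in RL95-2 against 6.34 to 6.58 in Hec-1A, and COL1A1 7.09 to 7.33 against 6.58 to 6.81. PECAM1 and COL1A2 went the other way, above the median on 5 and 6 Hec-1A arrays against 1 and 3 RL95-2 arrays. Within Hec-1A, control IgG replicate 1 correlated least with the other arrays, down to 0.945, against a lowest of 0.982 among all other pairs of the same line. On that array the class I genes lay at a median of -0.20 from their group means, while no other array was beyond 0.09. An alternative chosen after seeing the data set it aside together with RL95-2 PDGF-AA replicate 1 and RL95-2 PDGF-AA + 3G3 replicates 2 and 3.

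The stretches upstream of the start site, where known regulatory elements lie, are shown for 5 class I genes. HLA-B, HLA-F and TAP1 were called lower in Hec-1A under each treatment. HLA-C was called lower under control IgG alone, and B2M under PDGF-AA and PDGF-AA + 3G3 alone. Whether the elements bear on these levels was not tested. The stretches are RefSeq sequences on GRCh38.p14, 250 bases before the annotated start, written 5′ to 3′ along the gene. Capitals mark 4 motifs, searched on both strands, which were the core of the interferon-stimulated response element (GAAA and GAAA with any 2 bases between), the X2 core (TGACG) and Y box core (CCAAT) of the module read by the NLRC5 and CIITA enhanceosomes, and the kappaB motif. Where capitals run on, matches overlap.
HLA-B, chr6:31357180-31357429, minus strand: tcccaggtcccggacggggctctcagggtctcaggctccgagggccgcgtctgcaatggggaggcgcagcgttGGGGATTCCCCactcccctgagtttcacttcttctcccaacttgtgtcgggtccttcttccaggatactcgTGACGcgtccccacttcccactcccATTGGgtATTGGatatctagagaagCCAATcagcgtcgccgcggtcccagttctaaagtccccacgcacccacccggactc
HLA-C, chr6:31272093-31272342, minus strand: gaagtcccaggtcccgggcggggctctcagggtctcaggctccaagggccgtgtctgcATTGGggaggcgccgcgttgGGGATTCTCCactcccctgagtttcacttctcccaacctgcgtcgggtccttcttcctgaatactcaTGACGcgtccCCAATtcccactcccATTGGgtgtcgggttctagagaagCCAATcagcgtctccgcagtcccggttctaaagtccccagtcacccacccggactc
HLA-F, chr6:29723184-29723433, plus strand: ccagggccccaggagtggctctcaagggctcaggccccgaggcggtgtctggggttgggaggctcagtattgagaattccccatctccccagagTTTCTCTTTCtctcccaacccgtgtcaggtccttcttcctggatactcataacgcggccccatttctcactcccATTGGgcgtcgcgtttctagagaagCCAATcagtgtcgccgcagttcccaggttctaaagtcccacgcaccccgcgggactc
B2M, chr15:44711267-44711516, plus strand: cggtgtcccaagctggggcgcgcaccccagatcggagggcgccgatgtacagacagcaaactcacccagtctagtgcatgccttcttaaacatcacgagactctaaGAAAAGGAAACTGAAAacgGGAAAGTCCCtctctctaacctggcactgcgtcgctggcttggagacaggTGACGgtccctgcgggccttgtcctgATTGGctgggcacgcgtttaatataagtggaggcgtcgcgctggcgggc
TAP1, chr6:32853705-32853954, minus strand: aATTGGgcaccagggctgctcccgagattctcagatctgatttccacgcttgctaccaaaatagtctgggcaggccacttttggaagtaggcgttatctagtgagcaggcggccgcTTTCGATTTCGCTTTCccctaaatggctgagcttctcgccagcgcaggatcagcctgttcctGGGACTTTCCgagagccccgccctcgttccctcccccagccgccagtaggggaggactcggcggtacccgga
In these stretches HLA-B and HLA-C were identical at 89.0% of alignment columns, HLA-B and HLA-F at 79.8%, and HLA-C and HLA-F at 78.2%. B2M was identical to HLA-B at 47.3%, to HLA-C at 45.3% and to HLA-F at 47.8%. In both HLA-B and HLA-C a kappaB match is followed by an X2 core and then by 3 Y box cores, and HLA-C has 1 more Y box core ahead of them.

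Over windows of 300 bases, 250 before and 50 after the start, 18 of the 21 class I genes had at least 1 RefSeq window and 28 windows in all. The interferon-stimulated response element core was present in 39.3% of those windows, in 11 genes, against 3.57% of all 35116 windows. The kappaB motif was present in 32.1% against 11.3%, the X2 core in 28.6% against 24.6%, and the Y box core in 46.4% against 34.6%. Among the 10 class II windows, of 7 genes, the X2 core and the Y box core were each present in 60.0%. The opposed windows of TAP1 and PSMB9, a transporter subunit and an immunoproteasome subunit that are neighbours on chromosome 6, shared 13 bases. These matches describe the sequence and were not tested for binding.

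The stated aim of the design was to set Hec-1A against RL95-2, and most class I genes were lower in Hec-1A under each treatment. Under control IgG 13 of the 20 tested class I genes were lower in Hec-1A and 1 was higher, where 17.4% of all probes were called lower and 17.9% higher. Under PDGF-AA 14 were lower and 0 higher, with 13.3% and 14.5% of all probes, and under PDGF-AA + 3G3 again 14 and 0, with 13.8% and 14.5%. The median difference of the tested class I genes was -1.02, -0.84 and -0.69 in that order of treatments, while the median of all probes was within 0.01 of 0. The same 12 genes were lower in all 3 comparisons, namely HLA-B, HLA-E, HLA-F, TAP1, TAPBP, TAPBPL, CALR, PSMB8, PSMB9, PSMB10, PSME1 and PSME2, and the same 12 were the class I genes lower on all 9 Hec-1A arrays than on any RL95-2 array, as were 10.2% of all probes. Called and at least 2-fold lower were 10, 9 and 9 class I genes in the order of treatments, where 3.87%, 2.85% and 2.86% of all probes were. At least 4-fold lower were 5, 3 and 3, where 1.04%, 0.872% and 0.844% of all probes were. These shares cover all 32216 tested probes, of which 21612 carried 1 symbol. Each gene is its brightest probe, so gene counts and shares are not matched. Under control IgG 35.4% of all probes were called in either direction. The 5 further lists below used the same probe choice. There 8 of 16, 7 of 12, 9 of 19, 9 of 13 and 9 of 11 tested genes were called, in the order given there.

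**Figure D1:**
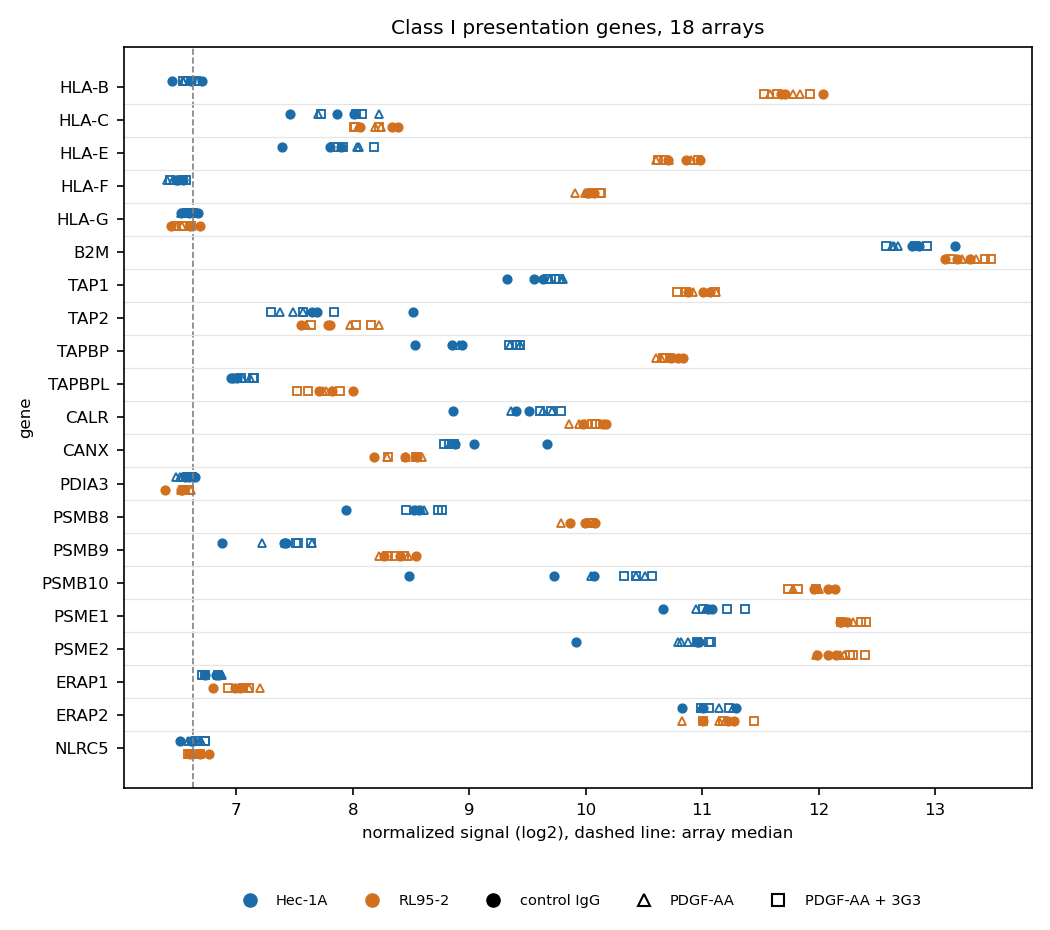
Normalized log2 signal (x axis) of the 21 class I genes (y axis) on all 18 arrays, with Hec-1A in blue, RL95-2 in orange, and the marker shape giving the treatment; the dashed line is the array median of 6.62. HLA-B and HLA-F sit at the array median in Hec-1A and at 9.91 or above in RL95-2, while B2M, HLA-C and ERAP2 lie close together in both lines.

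The class I genes with the 3 largest differences under control IgG were heavy chains, HLA-B, HLA-F and HLA-E. HLA-B, a classical heavy chain of chromosome 6, in Hec-1A lay at 6.61, 6.71 and 6.45 under control IgG, at 6.54, 6.67 and 6.54 under PDGF-AA, and at 6.54, 6.65 and 6.56 under PDGF-AA + 3G3. In RL95-2 the same probe (ILMN_1778401) gave 11.71, 11.68 and 12.04, then 11.58, 11.78 and 11.84, then 11.92, 11.53 and 11.64. All Hec-1A arrays thus lay near the array median and all RL95-2 arrays far above it, with no overlap. Since the Hec-1A level was at the median, the difference is given as a bound, at least 35.7-fold lower under control IgG (adjusted p = 2.0e-15), at least 34.2-fold under PDGF-AA and at least 33.5-fold under PDGF-AA + 3G3.

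HLA-F, a nonclassical heavy chain of restricted surface expression, was also at the array median in Hec-1A. Its Hec-1A levels were 6.50, 6.48 and 6.54 under control IgG, 6.40, 6.45 and 6.52 under PDGF-AA, and 6.56, 6.43 and 6.54 under PDGF-AA + 3G3. In RL95-2 they were 10.03, 10.01 and 10.07, then 9.99, 9.91 and 10.08, then 10.13, 10.06 and 10.12. The arrays within each line lay closer together than for HLA-B, and the lines again did not overlap. HLA-F was at least 10.7-fold, 10.3-fold and 11.1-fold lower in Hec-1A in the order of treatments. This probe exceeded the array median on 9 of 18 arrays, all of them RL95-2, and so passed the filter through that line alone. Its call, which is among those counted above, is therefore no separate support for the difference in level. The second probe of HLA-F (ILMN_1762861) was lower by -2.24 under control IgG, by at least 4.36-fold under PDGF-AA and by -2.06 under PDGF-AA + 3G3.

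HLA-E, whose product presents signal peptides of other class I chains to the NKG2A receptor of natural killer cells, was low but still detected in Hec-1A. It measured 7.39, 7.90 and 7.81 under control IgG, 8.05, 7.90 and 8.04 under PDGF-AA, and 7.91, 8.18 and 7.84 under PDGF-AA + 3G3. The RL95-2 levels were 10.71, 10.98 and 10.86, then 10.72, 10.60 and 10.90, then 10.96, 10.62 and 10.67. Every Hec-1A array was above the array median and well under every RL95-2 array. The differences were -3.15 ± 0.13, -2.74 ± 0.13 and -2.77 ± 0.13 (adjusted p = 1.4e-11 under control IgG), or 8.87-fold, 6.70-fold and 6.83-fold lower.

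On its brighter probe the classical chain HLA-C differed far less than HLA-B, its neighbour. Their upstream stretches are alike, and whether that bears on the levels was not tested. The other HLA-C probe (ILMN_2150787) lay between 6.33 and 6.53 on all arrays of both lines and did not pass the filter. The difference of the brighter HLA-C probe was -0.48 ± 0.15 under control IgG (adjusted p = 0.018), -0.17 (95% interval -0.49 to 0.15) under PDGF-AA and -0.14 (-0.46 to 0.18) under PDGF-AA + 3G3. Without Hec-1A control IgG replicate 1, which read 7.46 against 8.01 and 7.87, the value under control IgG was -0.32 (adjusted p = 0.095), and without RL95-2 control IgG replicate 1 or 3 it also lost its call, at adjusted p = 0.063 and 0.077. HLA-G, a chain known from the placental trophoblast, stayed within 6.44 and 6.68 on all arrays of both lines, so that no level above background was measured and no difference was called. Heavy chain genes are near-identical and vary between people, and whether these probes tell the copies and the alleles of each line apart was not tested.

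B2M, the invariant light chain, was bright in both lines. In Hec-1A it read 13.17, 12.86 and 12.80 under control IgG, 12.64, 12.63 and 12.68 under PDGF-AA, and 12.83, 12.58 and 12.93 under PDGF-AA + 3G3. RL95-2 gave 13.19, 13.30 and 13.08, then 13.31, 13.35 and 13.23, then 13.14, 13.43 and 13.48. The control groups overlapped, and both treated pairs of groups did not. The difference was -0.24 ± 0.11 under control IgG (adjusted p = 0.0997), -0.64 ± 0.11 under PDGF-AA (adjusted p = 0.00020) and -0.57 ± 0.11 under PDGF-AA + 3G3 (adjusted p = 0.00064). Without Hec-1A control IgG replicate 1 the value under control IgG was -0.36 (adjusted p = 0.013), and it was also called when arrays were scaled to a common median (-0.48, adjusted p = 0.0098) or weighted (-0.37, adjusted p = 0.00034). With the mean of its probes the call under PDGF-AA + 3G3 was lost (-0.64, adjusted p = 0.069). A second probe (ILMN_1725427) varied more, with 0.33 ± 0.41, -1.20 ± 0.41 and -0.71 ± 0.41, so that its sign under control IgG was the opposite.

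**Figure D2:**
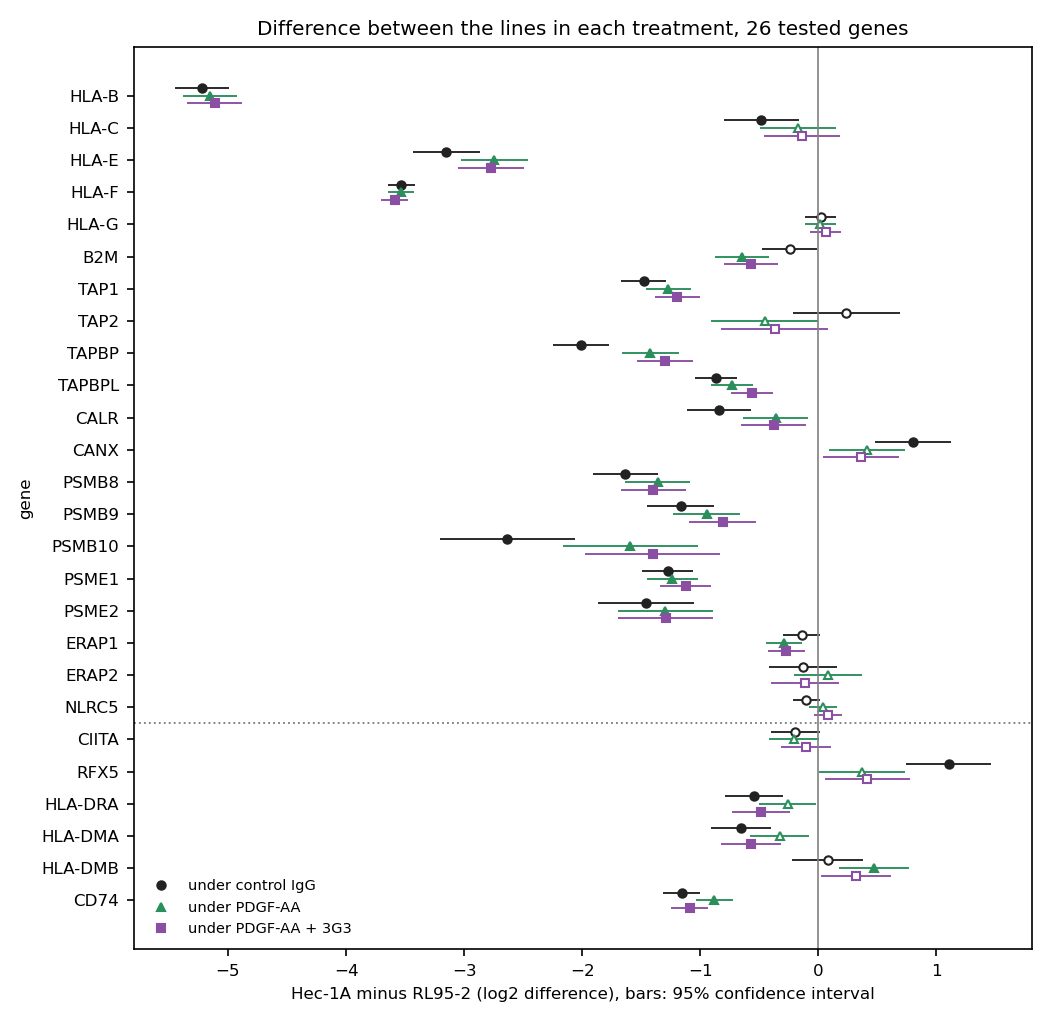
Hec-1A minus RL95-2 (x axis, log2 difference, bars are 95% confidence intervals) for the 26 tested genes (y axis) under control IgG, PDGF-AA and PDGF-AA + 3G3; filled markers passed the test, and class II genes are under the dotted line. HLA-B, HLA-F and HLA-E are the farthest to the left, and RFX5 and CANX lie to the right of 0 under control IgG.

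Among the genes of peptide transport and loading, 4 of 6 tested were lower in Hec-1A under each treatment and 1 was higher under control IgG. Of all probes, 17.4%, 13.3% and 13.8% were called lower in the order of treatments, and 17.9% higher under control IgG. TAPBP encodes tapasin, which bridges the class I chain and the transporter. Its Hec-1A levels were 8.53, 8.94 and 8.85 under control IgG, 9.44, 8.92 and 9.35 under PDGF-AA, and 9.40, 9.43 and 9.34 under PDGF-AA + 3G3. In RL95-2 they were 10.79, 10.73 and 10.83, then 10.60, 10.65 and 10.72, then 10.72, 10.68 and 10.66. RL95-2 arrays lay above all Hec-1A arrays, and within Hec-1A most treated arrays lay above the controls. The difference was -2.01 ± 0.11 (adjusted p = 5.8e-10), -1.42 ± 0.11 and -1.30 ± 0.11 in the order of treatments. Of the dimmer probes of TAPBP, 1 (ILMN_1782851) was also lower, at -0.67 under control IgG, and 1 near the array median (ILMN_1773031) was not called, at -0.01.

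TAP1, a subunit of the peptide transporter, was lower by -1.48 ± 0.09 (adjusted p = 1.6e-09), -1.27 ± 0.09 and -1.19 ± 0.09. The probe of TAP2, the other subunit, was not called, with 0.24 (95% interval -0.22 to 0.69), -0.45 (-0.91 to 0.00) and -0.37 (-0.83 to 0.08). Its reading on Hec-1A control IgG replicate 1 was 8.51 against 7.65 and 7.69 on the other control arrays, and without that array the value was -0.04. The dimmer TAP2 probe (ILMN_1759250) was called lower under each treatment, at -0.49, -0.42 and -0.32, so the probes of TAP2 disagree. TAPBPL, which encodes the peptide editor TAPBPR, was lower by -0.87 ± 0.08, -0.73 ± 0.08 and -0.56 ± 0.08.

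The calreticulin gene CALR, a lectin chaperone of the loading complex, was lower by -0.84 ± 0.13 under control IgG (adjusted p = 6.9e-05), and by -0.36 and -0.38 under the treatments, with adjusted p = 0.048 and 0.038. Those treated calls were lost when any array of the compared groups except Hec-1A PDGF-AA replicate 3 was left out, with the lowest and highest adjusted p at 0.051 and 0.21. CANX, encoding calnexin, which holds newly made heavy chains, was higher in Hec-1A under control IgG by 0.80 ± 0.15 (adjusted p = 0.00052). Under the treatments CANX stood at 0.41 and 0.36 (adjusted p = 0.058 and 0.098). Hec-1A control IgG replicate 1 read 9.66 for CANX against 8.88 and 9.04, and without it the value was 0.57 (adjusted p = 0.00041). PDIA3 lay between 6.39 and 6.65 on all arrays and was not tested.

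All 5 proteasome genes of the list were lower in Hec-1A under each treatment, where 17.4%, 13.3% and 13.8% of all probes were. PSMB10, an inducible catalytic subunit, in Hec-1A read 8.48, 10.07 and 9.72 under control IgG, 10.43, 10.04 and 10.51 under PDGF-AA, and 10.33, 10.57 and 10.43 under PDGF-AA + 3G3. In RL95-2 it read 12.08, 11.96 and 12.14, then 11.78, 12.00 and 11.98, then 11.98, 11.74 and 11.82. Hec-1A control IgG replicate 1 was the lowest array by a wide margin, and no Hec-1A array reached RL95-2. The difference was -2.63 ± 0.27 (adjusted p = 8.1e-07), -1.59 ± 0.27 and -1.40 ± 0.27, and without Hec-1A control IgG replicate 1 the first of these was -2.16 (adjusted p = 8.5e-10).

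PSMB8, another inducible catalytic subunit, was lower by -1.63 ± 0.13, -1.36 ± 0.13 and -1.40 ± 0.13. Of its other probes, 2 gave -1.95 and -1.64 under control IgG, and 1 near the array median (ILMN_2284794) gave -0.06 and was called under PDGF-AA + 3G3, at -0.18. PSMB9 was lower by -1.17 ± 0.13, -0.95 ± 0.13 and -0.81 ± 0.13, while its dimmer probe (ILMN_1798233) was not called, at -0.15 under control IgG. The proteasome activator subunits PSME1 and PSME2 form the inducible cap that opens the core. PSME1 was lower by -1.28 ± 0.10, -1.24 ± 0.10 and -1.13 ± 0.10, and PSME2 by -1.46 ± 0.19, -1.30 ± 0.19 and -1.29 ± 0.19. A dim probe of PSME1 (ILMN_1726698) was not called, at -0.06 under control IgG.

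The aminopeptidases that trim peptides in the endoplasmic reticulum differed little. ERAP1, close to the array median, stood at -0.14 (adjusted p = 0.17) under control IgG and was lower by -0.29 (adjusted p = 0.0061) and -0.27 (adjusted p = 0.0094) under the treatments. Its call under PDGF-AA + 3G3 was lost without normalization between arrays (adjusted p = 0.097) and with the mean of its probes (-0.15, adjusted p = 0.079), and with normexp at an offset of 16 both treated values were -0.60. Under control IgG it was called, at -0.21 (adjusted p = 0.040), without RL95-2 control IgG replicate 3, and at -0.20 (adjusted p = 0.0086) with array weights. ERAP2, bright in both lines, stood at -0.13 (95% interval -0.42 to 0.16), 0.08 (-0.21 to 0.37) and -0.11 (-0.40 to 0.17). Its dim probe (ILMN_1743145) was called lower under both treatments, at -0.26 each. NLRC5, the class I transactivator, lay between 6.51 and 6.77 on all arrays and was not called, at -0.10, 0.04 and 0.08, so its level could not be told from background in either line.

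The class I genes of chromosome 6, where the major histocompatibility complex lies, were 10 of the 21. Of these, 8, 7 and 7 were lower in Hec-1A in the order of treatments, with medians of -1.56, -1.32 and -1.25. Of all probes, 17.4%, 13.3% and 13.8% were called lower, which also stands behind the counts that follow. Of the 10 tested genes on other chromosomes, 5, 7 and 7 were lower, with medians of -0.54, -0.50 and -0.47. The lower genes outside chromosome 6 included PSMB10 on chromosome 16 and PSME1 and PSME2 on chromosome 14. Among genes with an interferon-stimulated response element core in a window, 7, 9 and 9 of 11 were lower in the order of treatments, with medians of -1.46, -1.27 and -1.19. Among the genes with windows and no such match 5, 4 and 4 of 7 were lower, with medians of -0.84, -0.36 and -0.38. Only exact matches were counted, so whether windows without a match hold a variant of the element was not searched. The splits by the other motifs went the other way under each treatment, with lower medians in the genes without the motif. Under control IgG the medians with and without it were -0.48 and -1.28 for kappaB. They were also -0.48 and -1.28 for the X2 core, and -0.66 and -1.37 for the Y box core. These splits are descriptions and no test was made of them.

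The class II genes showed smaller and mixed differences. Of 6 tested, 3 were lower and 1 higher in Hec-1A under control IgG, where 35.4% of all probes were called in either direction. Under PDGF-AA 1 was lower and 1 higher (27.7% of all probes), and under PDGF-AA + 3G3 3 were lower and 0 higher (28.3%). The median of the tested genes was -0.37, -0.23 and -0.29. The chains HLA-DRB1, HLA-DPA1 and HLA-DPB1 lay between 6.37 and 6.66 on all arrays of both lines and were not measured above background.

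**Figure D3:**
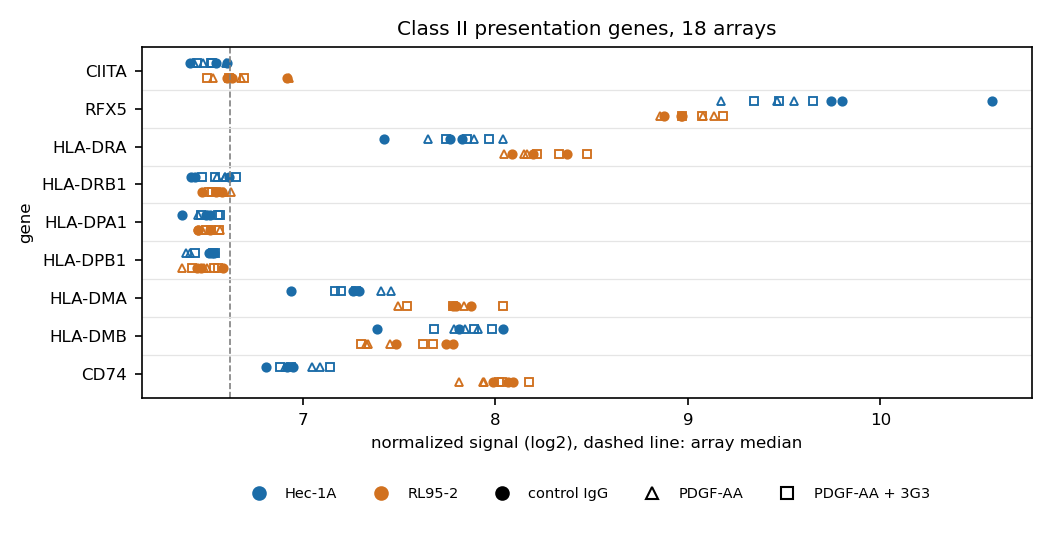
Normalized log2 signal (x axis) of the 9 class II genes (y axis) on all 18 arrays, Hec-1A in blue and RL95-2 in orange, with the treatment given by marker shape and the array median of 6.62 dashed. CD74 is separated between the lines, HLA-DRB1, HLA-DPA1 and HLA-DPB1 sit at the median in both, and RFX5 on 1 Hec-1A control array lies at 10.58.

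CIITA, the master coactivator of class II genes, was at the array median. Its Hec-1A levels were 6.60, 6.41 and 6.55 under control IgG, 6.44, 6.48 and 6.60 under PDGF-AA, and 6.53, 6.52 and 6.45 under PDGF-AA + 3G3. In RL95-2 they were 6.92, 6.63 and 6.61, then 6.53, 6.68 and 6.93, then 6.70, 6.62 and 6.50. A pair of RL95-2 arrays stood somewhat above the others, and no difference was called, at -0.20, -0.21 and -0.10. Without RL95-2 PDGF-AA replicate 1 the value under PDGF-AA was -0.30 (adjusted p = 0.044).

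RFX5, a DNA-binding subunit of the factor that binds the X box, was called higher in Hec-1A under control IgG. Hec-1A read 10.58, 9.74 and 9.80 under control IgG, 9.17, 9.55 and 9.46 under PDGF-AA, and 9.47, 9.34 and 9.65 under PDGF-AA + 3G3. RL95-2 read 8.97, 8.87 and 8.97, then 9.08, 9.14 and 8.86, then 8.97, 9.18 and 9.07. Hec-1A control IgG replicate 1 was the highest array, and all Hec-1A arrays but 1 lay above all RL95-2 arrays. The difference was 1.10 ± 0.17 (adjusted p = 7.0e-05), or 0.83 (adjusted p = 1.4e-05) without that array, and 0.37 and 0.41 under the treatments (adjusted p = 0.13 and 0.087). Its dim probe (ILMN_2363843) was not called, at 0.09 under control IgG.

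HLA-DRA, the nearly invariant alpha chain of the DR heterodimer, was detected in both lines. In Hec-1A it read 7.42, 7.77 and 7.83 under control IgG, 7.89, 7.65 and 8.04 under PDGF-AA, and 7.85, 7.97 and 7.74 under PDGF-AA + 3G3. RL95-2 gave 8.37, 8.09 and 8.19, then 8.15, 8.17 and 8.05, then 8.33, 8.47 and 8.22. The highest Hec-1A array was just under the lowest RL95-2 array, with no overlap in any treatment. The difference was -0.55 ± 0.11 (adjusted p = 0.0012), -0.26 ± 0.11 (adjusted p = 0.11) and -0.49 ± 0.11 (adjusted p = 0.0038). Its second probe (ILMN_2157441) was lower under each treatment, at -1.10, -0.95 and -1.33 (adjusted p = 4.3e-07 under control IgG). Without normalization between arrays the call of HLA-DRA under control IgG was lost, at -0.35 (adjusted p = 0.13).

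CD74, the invariant chain that blocks and guides class II molecules until they reach endosomes, was lower in Hec-1A under each treatment. Hec-1A levels were 6.81, 6.95 and 6.92 under control IgG, 7.05, 6.91 and 7.09 under PDGF-AA, and 6.88, 6.94 and 7.14 under PDGF-AA + 3G3. RL95-2 levels were 8.09, 7.99 and 8.07, then 7.94, 7.81 and 7.94, then 8.18, 8.02 and 8.04. The lines were well separated, with Hec-1A a little above the array median. The difference was -1.16 ± 0.07 (adjusted p = 2.6e-09), -0.88 ± 0.07 and -1.09 ± 0.07. With background correction by normexp at an offset of 16 these were -1.89, -1.42 and -1.73, and as the mean of all tested CD74 probes they were -0.69, -0.50 and -0.69.

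HLA-DMA and HLA-DMB encode the chains of HLA-DM, which exchanges peptides on class II molecules, and they did not go together. HLA-DMA in Hec-1A read 6.94, 7.26 and 7.29, then 7.46, 7.27 and 7.41, then 7.17, 7.20 and 7.28 in the order of treatments. RL95-2 read 7.78, 7.79 and 7.87, then 7.50, 7.84 and 7.79, then 8.04, 7.78 and 7.54. Hec-1A was lower on all arrays, by -0.65 ± 0.12 (adjusted p = 0.00035), -0.33 ± 0.12 (adjusted p = 0.051) and -0.57 ± 0.12 (adjusted p = 0.0014). Without RL95-2 PDGF-AA replicate 1, its lowest array in that line, the value under PDGF-AA was -0.43 (adjusted p = 0.016).

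HLA-DMB in Hec-1A read 7.39, 8.04 and 7.81, then 7.91, 7.79 and 7.84, then 7.89, 7.99 and 7.68. RL95-2 read 7.74, 7.48 and 7.78, then 7.34, 7.33 and 7.46, then 7.63, 7.68 and 7.30. The control groups overlapped, and under both treatments Hec-1A was above RL95-2, barely under PDGF-AA + 3G3. The difference was 0.08 ± 0.14 (adjusted p = 0.75), 0.47 ± 0.14 (adjusted p = 0.017) and 0.32 ± 0.14 (adjusted p = 0.11). The call under PDGF-AA was lost without Hec-1A PDGF-AA replicate 1 or without RL95-2 PDGF-AA replicate 1 or 2, at adjusted p = 0.061, 0.054 and 0.057. It was also lost without normalization between arrays (0.34, adjusted p = 0.18) and when arrays were brought to 1 shared median (0.36, adjusted p = 0.062).

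The treatment comparisons ask whether PDGF-AA, or the antibody given with it, moved these genes within a line. Of the 26 tested genes 0 were called by limma in any of the 6 treatment comparisons, where between 0% and 0.00621% of all probes were called. At an unadjusted p below 0.05, 8 class I genes and 1 class II gene passed for PDGF-AA against control IgG in Hec-1A, where 20.9% of all probes did. For PDGF-AA + 3G3 against control IgG in Hec-1A they were 10 and 1, where 20.4% of all probes did. In RL95-2 they were 1 and 0 for PDGF-AA (5.69% of all probes) and 0 and 0 for PDGF-AA + 3G3 (9.39%). For the antibody added to PDGF-AA they were 0 and 0 in Hec-1A (4.07%) and 0 and 1 in RL95-2 (3.23%).

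In Hec-1A the smallest p for PDGF-AA belonged to TAPBP, at 0.46 ± 0.11 (adjusted p = 0.11), and RFX5, at -0.65 ± 0.17 (adjusted p = 0.11). For PDGF-AA + 3G3 against control IgG they were TAPBP, at 0.62 ± 0.11 (adjusted p = 0.062), and PSMB10, at 1.02 ± 0.27 (adjusted p = 0.072). The array values given above for these genes show that Hec-1A control IgG replicate 1 was the control array farthest from the treated arrays in each case. Without that array TAPBP stood at 0.34 (adjusted p = 0.35) and RFX5 at -0.38 (adjusted p = 0.34) for PDGF-AA, and TAPBP at 0.49 (adjusted p = 0.13) and PSMB10 at 0.54 (adjusted p = 0.13) for PDGF-AA + 3G3. Without Hec-1A control IgG replicate 2 in its place, TAPBP stood at 0.54 (adjusted p = 0.018) and RFX5 at -0.79 (adjusted p = 0.017) for PDGF-AA, where 11.1% of all probes were then called. Also without replicate 2, TAPBP stood at 0.70 (adjusted p = 0.0055) and PSMB10 at 1.34 (adjusted p = 0.0061) for PDGF-AA + 3G3, where 12.0% of all probes were. Without Hec-1A PDGF-AA replicate 2, TAPBP stood at 0.62 (adjusted p = 0.030) for PDGF-AA, with 0.0683% of all probes called. Both comparisons use the same control arrays, so their values are not independent.

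Adding the antibody to PDGF-AA gave its smallest p in Hec-1A for PSME1, at 0.19 (95% interval -0.03 to 0.41), and HLA-DMA, at -0.16 (-0.42 to 0.09). In RL95-2 these were CD74, at 0.18 (0.03 to 0.34), and HLA-F, at 0.11 (-0.01 to 0.22). PDGF-AA in RL95-2 gave ERAP1, at 0.17 (adjusted p = 0.86), and HLA-DMB, at -0.29 (adjusted p = 0.87). PDGF-AA + 3G3 against control IgG in RL95-2 gave TAPBPL, at -0.17 (adjusted p = 0.55), and B2M, at 0.16 (adjusted p = 0.65).

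**Figure D4:**
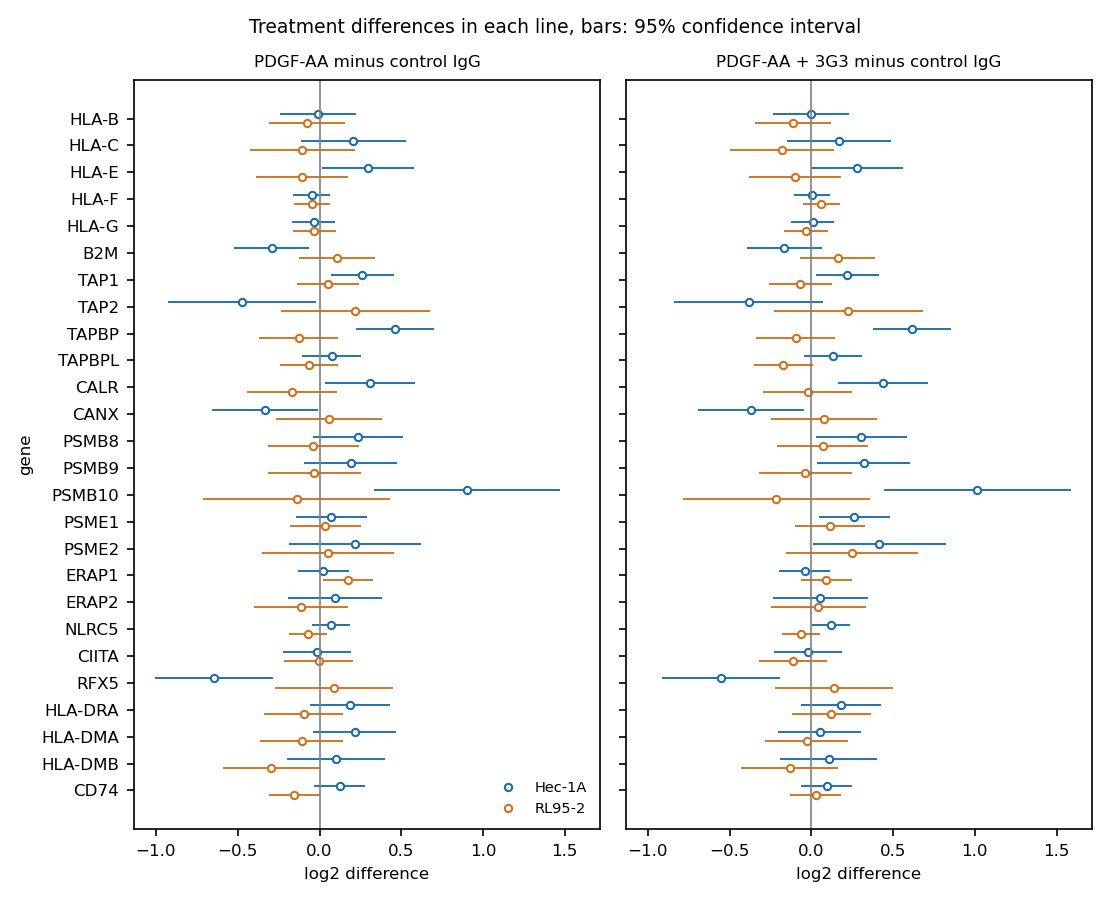
Difference from control IgG (x axis, log2 difference, bars are 95% confidence intervals) for PDGF-AA on the left and PDGF-AA + 3G3 on the right, in Hec-1A (blue) and RL95-2 (orange), for the 26 tested genes (y axis). No gene passed the test, and the Hec-1A values, which rest on the same 3 control arrays in both panels, lie farthest from 0 for PSMB10 (0.90) and RFX5 (-0.65) on the left and for PSMB10 (1.02) and TAPBP (0.62) on the right.

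Whether the lines responded differently was tested as the difference of the treatment differences, Hec-1A minus RL95-2, and 0 of the 26 genes were called by limma, with at most 0.0031% of all probes called. At an unadjusted p below 0.05, 6 class I and 2 class II genes passed for PDGF-AA (19.8% of all probes), 0 and 0 for the antibody added to PDGF-AA (2.82%), and 7 and 1 for PDGF-AA + 3G3 against control IgG (21.5%). The smallest p for PDGF-AA belonged to TAPBP, at 0.59 ± 0.16 (adjusted p = 0.14), and RFX5, at -0.73 ± 0.24 (adjusted p = 0.15). For the antibody added to PDGF-AA they were CD74, at -0.21, and HLA-DMA, at -0.24. For PDGF-AA + 3G3 against control IgG they were TAPBP, at 0.71 ± 0.16 (adjusted p = 0.082), and PSMB10, at 1.23 ± 0.38 (adjusted p = 0.11). Without Hec-1A control IgG replicate 1 the last of these stood at 0.59 and 0.76 (adjusted p = 0.097 and 0.093), and without replicate 2 at 0.79 and 1.55 (adjusted p = 0.017 and 0.018), where 9.91% of all probes were called. For PDGF-AA, leaving out replicate 2 gave TAPBP at 0.67 (adjusted p = 0.035) and RFX5 at -0.88 (adjusted p = 0.042), with 6.69% of all probes called. For PDGF-AA + 3G3 TAPBP was also called without RL95-2 PDGF-AA + 3G3 replicate 1, at 0.73 (adjusted p = 0.049), with 2.27% of all probes called.

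Other genes of the pathway were read from 5 further lists, under control IgG unless a treatment is named. These lists too were chosen with earlier results of these data known. Of 16 genes of the constitutive proteasome core and caps, 3 were higher and 5 lower in Hec-1A, with a median of -0.15, where 17.9% of all probes were higher and 17.4% lower. Under PDGF-AA 1 was higher and 5 lower (median -0.27), with 14.5% and 13.3% of all probes, and under PDGF-AA + 3G3 1 and 4 (median -0.17), with 14.5% and 13.8%. The core subunits PSMA1 and PSMA6 were lower by -0.54 and -0.65, while PSME3, which forms a nuclear activator cap, and PSME4, another activator, were higher by 1.08 and 0.96. Under PDGF-AA and PDGF-AA + 3G3 PSME3 stood at 0.58 and 0.43, both called, and PSME4 at 0.21 and 0.22, neither called. The 5 proteasome genes described above, inducible catalytic subunits and cap, lay between -1.17 and -2.63 in the same comparison. Of 12 other genes of class I peptide handling, 5 were higher and 2 lower, with a median of -0.10, but 2 were higher and 3 lower under PDGF-AA (median 0.13) and 3 and 4 under PDGF-AA + 3G3 (median 0.09). The cytosolic peptidases BLMH, NPEPPS and TPP2 were higher by 0.85, 0.88 and 0.46, and PRKCSH, a subunit of glucosidase II, was lower by -1.10. Under PDGF-AA and PDGF-AA + 3G3 BLMH stood at 0.72 and 0.67 and PRKCSH at -0.44 and -0.41, all called, NPEPPS at 0.31 and 0.48, of which only the second was called, and TPP2 at 0.18 and 0.01, neither called.

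Of 19 genes of interferon-gamma signalling and factors of the histocompatibility promoters, 1 was higher and 8 were lower, with a median of -0.02, against the same shares of all probes, which also stand behind the counts of the remaining lists. Under PDGF-AA 1 was higher and 7 lower (median -0.07), and under PDGF-AA + 3G3 2 and 7 (median -0.11). IRF1, a transcription factor that binds the interferon-stimulated response element, was lower by -2.69 ± 0.12 (adjusted p = 2.3e-11). NFYC, a subunit of the factor that binds the Y box, was lower by -0.57, STAT3 by -0.58, and the NF-kappaB precursor gene NFKB1 by -0.82. These named genes are all from the lower side of the list. Of its 19 genes 10 were not called and 8 had a positive difference, the largest at 0.60. Of 13 tested proteases and accessory genes of the class II pathway, 1 was higher and 8 were lower, with a median of -0.50, against 1 and 7 under PDGF-AA (median -0.35) and 1 and 8 under PDGF-AA + 3G3 (median -0.36). The lysosomal cathepsins CTSB, CTSH and CTSD were lower by -3.45, -2.84 and -1.79, and CTSC was higher by 1.25. Of 11 tested class I-like molecules and ligands of natural killer cells, 5 were higher and 4 lower, with a median of 0.21, and the counts were the same under both treatments (medians 0.19 and 0.13). MICB, a ligand of the NKG2D receptor, was at the array median in Hec-1A and at least 3.96-fold lower, and FCGRT, the neonatal Fc receptor chain, was at least 1.97-fold higher. NECTIN2 and MR1, which presents microbial metabolites, were lower by -1.34 and -0.42, with NECTIN2 at -0.87 and -0.89 under the treatments. None of the genes in these lists was called in a treatment comparison.

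**Figure D5:**
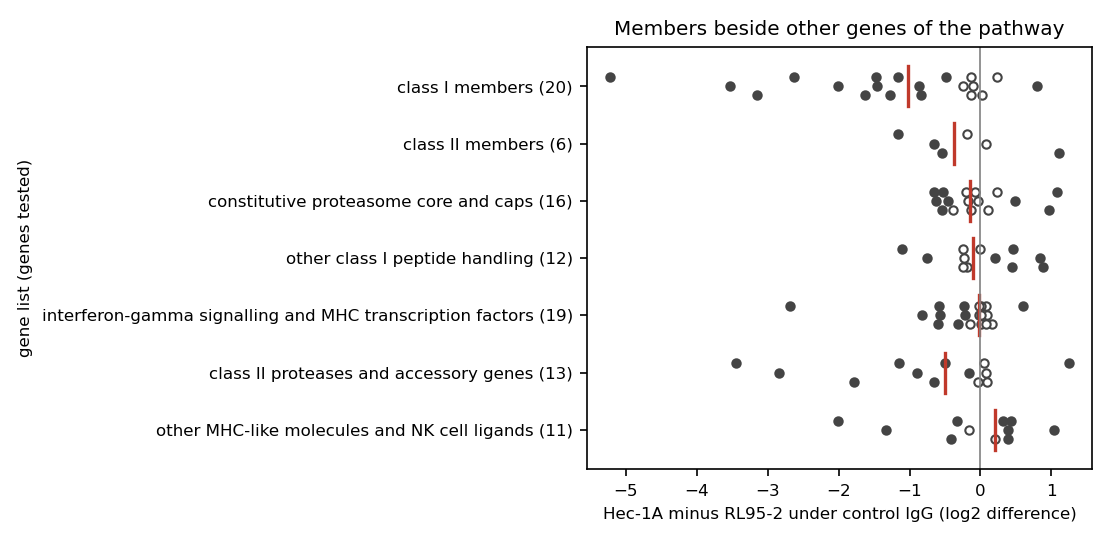
Hec-1A minus RL95-2 under control IgG (x axis, log2 difference) for each tested gene of the class I and class II parts and of 5 other lists (y axis, with the number tested); filled points passed the test and red lines are medians. The class I genes have a median of -1.02, against -0.15 for the constitutive proteasome and -0.02 for interferon-gamma signalling, where IRF1 is the point at -2.69.

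The calls between the lines rest on quantile normalization. With arrays left unnormalized, the median over all probes under control IgG moved by 0.11, and 68.1% of all calls were higher in Hec-1A rather than 50.7%, and under PDGF-AA 38.4% rather than 52.2%. The 11 class I genes called lower in all 3 comparisons apart from CALR, together with CD74, kept their calls in every alternative run.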

How the data were processed

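Biotin-labelled cRNA was hybridised to 18 arrays. Probe intensity, not normalized, was deposited as exported from BeadStudio, per the submitters' processing notes, together with the authors' processed log2 values. The latter were quantile-normalized, since all 18 columns share a median of 6.639, and differ from the log2 intensity quantile-normalized here by at most 0.0438. No detection p-values are used here, 0 signals were at or below 0, and no genome build is named in the labels. Of 47231 probes 30113 carried 1 symbol, 8 several and 17110 none, by the platform annotation, and 30074 were found by Entrez ID in the reference gene table, where 0 had another symbol.

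Intensities were quantile-normalized as log2 without background subtraction, and the 32216 probes (68.2%) that exceeded the array median on 3 or more arrays were tested. The 6 group means were estimated by limma 3.58.1 under R 4.3.3 (12 residual and 3.29 prior degrees of freedom), giving two-sided tests with Benjamini-Hochberg adjustment per comparison over all probes. Where a group averaged no more than the array median, its arrays were raised to the median and the fold is given as "at least". The fits were tested on simulated data. Promoter windows came from RefSeq (GRCh38.p14) for 25 of the 30 genes. Plots used matplotlib 3.10.9 (Python 3.11.15).

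The members, lists, markers and tests were chosen with earlier results of these data known. All members are accounted for. Arrays are given in full for class I genes called at least 4-fold between the lines, for B2M and for tested class II genes. The 2 smallest p-values are named per treatment comparison, up to 4 genes per other list, and other probes where they disagree (some dim ones are left out). Alternatives changed normalization, background, filter, moderation, weights, grouping, block, threshold and probe choice, and left out each array. Same-numbered arrays of different groups were not treated as pairs in the main fit, and the labels do not say whether they are.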

Additional observations from a re-analysis of the deposited data

How the results depend on the processing

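The 6 counts of genes called between the lines stayed within 1.5 times in 125 of 132 values under the alternatives, and no single gene's value that was called changed sign. The exceptions were class II counts. Under PDGF-AA the 2 called class II genes became 4 with array weights, 4 with each comparison on its own groups alone, 1 at an adjusted p below 0.01 and 5 without the 4 arrays that stand apart, an alternative chosen after seeing the data, with 1 to 3 on leaving out single arrays (1 without Hec-1A PDGF-AA replicate 1 or RL95-2 PDGF-AA replicate 2). Under PDGF-AA + 3G3 the 3 became 5 with array weights. TAP2, CANX, RFX5 and HLA-DMA, not called under PDGF-AA, were called there with array weights and on their own groups alone. Single genes lost a call in 36 and gained one in 45 of 1704 values.

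In the treatment comparisons the share of all tested probes called in the same fit is given beside each class I count. Within Hec-1A the 0 called class I genes for PDGF-AA became 2 with array weights (14.3% of all probes) and 0 to 4 on leaving out single arrays (11.1% of all probes where it was 4), and the 0 class II genes became 1 and 0 to 1 in the same fits. For PDGF-AA + 3G3 against control IgG the 0 class I genes became 2 with a filter at the 75th percentile (6.95%), 1 with an intensity trend and robust moderation (0.872%), 3 with array weights (11.5%), 3 at an adjusted p below 0.1 (5.99%) and 0 to 4 on leaving out single arrays (12.0% at 4). The class II count there became 1 with array weights, 1 at the looser threshold and 0 to 1. For the difference between the lines in PDGF-AA the 0 class I genes became 2 with array weights (7.98%) and 0 to 3 (6.69% at 3), and the class II count 1 and 0 to 1. For that in PDGF-AA + 3G3 against control IgG they became 3 with array weights (13.1%), 1 at an adjusted p below 0.1 (3.79%) and 0 to 3 (9.91% at 3), and the class II count 1 and 0 to 1. The array whose omission gave the highest of these treatment counts was Hec-1A control IgG replicate 2, which leaves 2 control arrays that include replicate 1. The cause was not tested.

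With the replicate number as a block, the class I counts between the lines were 14, 13 and 14, with CALR under PDGF-AA losing its call (adjusted p = 0.054), the class II counts were 4, 2 and 3, and 0 genes were called in any treatment comparison. The labels do not say whether the numbers pair the arrays. Of 45 same-numbered pairs of different groups, 14 had deviations correlated above 0.1, with a median of -0.077 and a range of -0.70 to 0.54. With 3 arrays per group these correlations cannot decide whether same-numbered arrays shared a batch. Signal over background limits the values at the array median, where HLA-G, NLRC5, CIITA and 4 untested genes lie.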
